A study of Mus musculus with 14 samples.

Results

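The genes of LIF and STAT3 signalling were followed in mouse ES cells under mTOR inhibition, a treatment known to bring them to a dormant state like diapause. The members were 9 of the 54446 genes in the files, taken by their gene symbol: the cytokine *Lif*, its receptor subunits *Lifr* and *Il6st*, the kinases *Jak1* and *Jak2*, the transcription factor *Stat3*, and *Socs3*, *Pim1* and *Gbx2*, which are known targets of the pathway. Expression came from bulk RNA-seq of 14 libraries of E14 cells, a mouse ES cell line, grown without feeders on gelatin in medium with serum and LIF, so that every group received LIF from outside. Wild-type (WT) cells were collected at 0, 24, 72 and 144 h of treatment with an inhibitor of mTOR (mTORi), and cells labelled *Tet1/2* double knockout (DKO) at 0, 24 and 72 h, 7 groups with 2 replicate libraries apiece. The study's methods name INK128 or another mTOR inhibitor for cells and embryos, without saying which these libraries received. The DKO line was grown from a sorted single cell after Cas9 cutting of both *Tet* genes. No DKO library at 144 h was analysed here.

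LIF binds a pair of receptor subunits, the LIF receptor LIFR and the signal transducer gp130, which *Il6st* encodes and which all cytokines of the IL-6 family share. The kinases JAK1 and JAK2 sit on these receptors and phosphorylate STAT3, which enters the nucleus and switches on target genes, among them *Socs3*, whose protein binds gp130 and the JAKs and ends the signal. In mouse ES cells this route keeps the naive pluripotent state, and mouse blastocysts without gp130 are known to lose their epiblast during delayed implantation, the natural form of the dormant state.

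Values are given on a pair of scales. The deposited TPM are length-corrected levels that sum to the same total in every library, so they give the share of a gene in its library. Spike-in TPM are the same values times 1 factor per library, through which the authors scaled each library to ERCC RNAs, synthetic transcripts added to RNA from a fixed number of sorted cells. The factor fell from 2.11 in both WT libraries at 0 h to 1.07 and 1 at 144 h. In DKO it was 2.81 and 2.38 at 0 h, and at the later times 2.24 and 1.36 (24 h) and 2.53 and 1.73 (72 h), so that spike-in TPM of the DKO replicates stood far apart even where their deposited TPM were close. The 6 ES cell markers summed to between 3785 and 6044 deposited TPM in all libraries. *Dppa5a* was the largest part of each sum, and single markers moved in both directions. *Nanog* went from 322 and 344 at WT 0 h to 154 and 214 at WT 72 h. In DKO it went from 259 and 292 at 0 h to 187 and 125 at 72 h. *Sox2* went from 231 and 248 at WT 0 h to 308 and 308 at WT 72 h. The 6 primitive endoderm markers summed to 66.1 and 116 at WT 24 h and to 48.5 and 17.6 at DKO 24 h (replicates 1 and 2), against 5.36 to 24.4 in all other libraries, and 6 of 6 averaged over 1 TPM in both 24 h groups. The 6 trophectoderm markers summed to 125 and 36.9 at WT 24 h, to 23.9 and 59.9 at DKO 24 h and to between 17.6 and 39.04 elsewhere. Of these markers, 3 of 6 averaged over 1 TPM in both 24 h groups, against 4 of 6 in both 0 h groups. The highest sum, in WT 24 h replicate 1, was mostly *Krt8* and *Krt18*, at 55.7 and 65.4. *Cdx2*, *Elf5* and *Hand1* were at 0.362, 0.0709 and 0.524 in that library. *Tet2* was at 15.9 to 22.2 deposited TPM in the libraries labelled DKO and at 96.0 to 143 in WT. *Tet1* ranges overlapped, with 147 to 248 in DKO and 191 to 349 in WT, and gene-level TPM do not show which exons were read.

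All 9 members passed the filter of a mean of at least 1 spike-in TPM and were tested with limma among 18232 genes. A member was called where the Benjamini-Hochberg adjusted p over all genes of a comparison was under 0.05. Differences are on the log2(value + 1) scale, which understates changes of genes near 1 TPM, such as *Lif*. The replicate numbers pair the libraries within a genotype, and calls that differ with the replicate as a block within each genotype are given beside the result. In bulk samples, fewer cells with a transcript and less of it per cell cannot be told apart.

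In mm10, with positions counted from 1, the members beside *Stat3*, *Pim1* and *Gbx2*, whose places are given with their values, lie at chr11:4257557-4272514 on the plus strand (*Lif*, ENSMUSG00000034394.14), chr15:7090614-7197489 on the plus strand (*Lifr*, ENSMUSG00000054263.12) and chr13:112464070-112510086 on the plus strand (*Il6st*, ENSMUSG00000021756.12). *Jak1* (ENSMUSG00000028530.14) lies at chr4:101152367-101265282 on the minus strand and overlaps *Raver2* on the other strand, at 14.7 deposited TPM on average, so reads of both cannot be told apart if strand was not used in counting. *Jak2* (ENSMUSG00000024789.12) lies at chr19:29251828-29313080 on the plus strand and *Socs3* (ENSMUSG00000053113.3) at chr11:117966079-117970047 on the minus strand, neither with an overlapping gene.

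The only STAT-type motif in the RefSeq promoter windows of the members was in that of *Socs3*. The letters TTCNNNGAA, which read the same on both strands, were searched in the 300 bases from 250 before to 50 after each start site in the RefSeq table of build GRCm38.p6. They occurred in 8.29% of 32817 promoters of this length. The members had 11 such promoters, with 2 each for *Lifr* and *Pim1*, and 1 of the 11 held a match. The start of the gene in the files lay inside 7 of the 11 windows. The other 4, both of *Lifr*, 1 of *Pim1* and that of *Socs3*, lay inside the gene, with start sites 38958 and 49928 bases downstream of the start in the files for *Lifr* and 2273 for *Pim1*, so for *Lifr* and *Socs3* the start in the files was not searched. The tighter form TTCCNGGAA, which is contained in the wider one, was in 1.15% of all promoters and in none of the members' promoters. The *Socs3* match starts 154 bases before the start site. It is shown in capitals in the stretch chr11:117969482-117969550 on the minus strand, because *Socs3* is the member whose window holds the motif. The RefSeq start site used here lies at position 117969366, and the gene in the files starts 681 bases further upstream, at position 117970047. The stretch is therefore inside the gene as the files bound it, where it lies in an intron of 1 GENCODE transcript and overlaps 0 exons:

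*Socs3* RefSeq window: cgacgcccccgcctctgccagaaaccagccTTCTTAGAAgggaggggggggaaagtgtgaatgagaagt

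The match is a description of these letters and not a binding site. For the other members no statement on STAT3 follows from windows of this size.

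In untreated WT cells, the receptor and the targets were far above the ligand. In deposited TPM, *Lifr* was highest at 67.8 ± 2.55 (SD, n = 2), followed by *Pim1* at 61.5 ± 8.39, *Socs3* at 60.2 ± 4.53, *Stat3* at 47.7 ± 4.21 and *Gbx2* at 42.1 ± 8.90. *Il6st* stood at 28.5 ± 2.19, *Jak1* at 23.1 ± 0.913, *Jak2* at 3.97 ± 0.119 and *Lif* at 2.25 ± 0.76. The libraries of *Lifr* and *Pim1* overlapped in this order, as did those of *Pim1* and *Socs3* and of *Stat3* and *Gbx2*, and all other neighbours were apart. At WT 144 h the order had *Pim1* first at 114 ± 2.49, ahead of *Lifr* at 71.3 ± 4.50, and *Lif* last at 0.915 ± 0.376. *Jak2* was at 3.36 ± 0.0255 there and *Jak1* at 19.6 ± 0.337, so the kinases kept their places between *Il6st* and *Lif*.

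**Figure D1:**
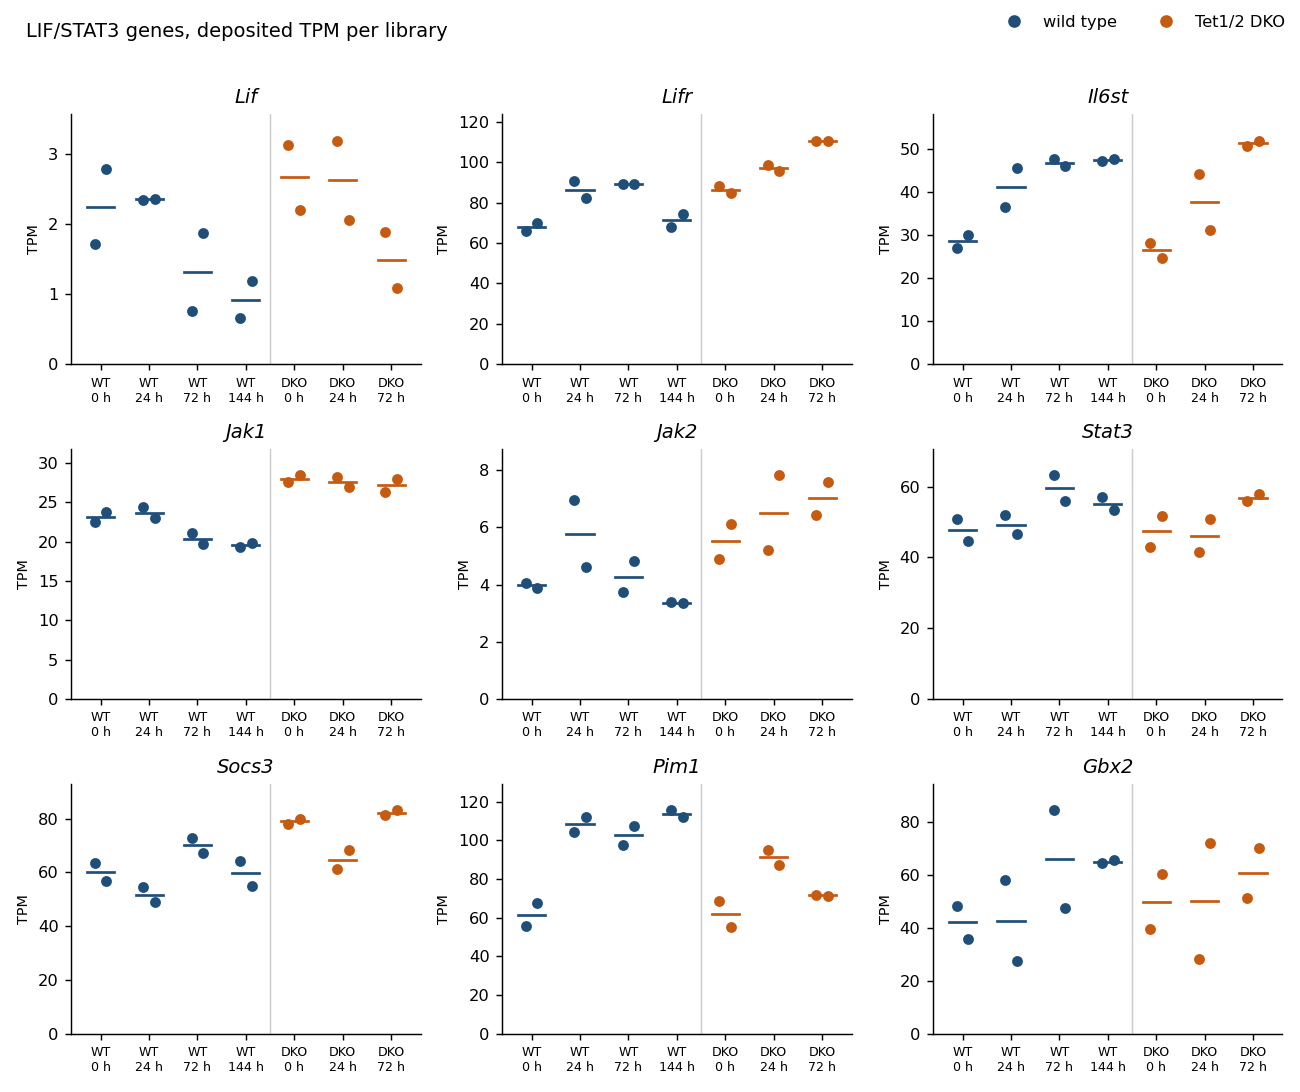
Deposited TPM of the 9 members, with 1 panel per gene, the 7 groups on the horizontal axis and TPM from 0 on the vertical axis. Points are the 2 libraries of a group, bars their mean, blue WT and orange DKO. *Pim1* stands at 97.4 or more in the 6 treated WT libraries and at 71.4 and 71.8 at DKO 72 h.

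Under mTORi, *Il6st* and *Pim1* rose as a share of the library at every WT time, while 6 of the 9 members fell on spike-in TPM at WT 144 h, when the transcriptome as a whole was lower. On deposited TPM, *Lifr*, *Il6st* and *Pim1* were called higher at WT 24 h, 3 of 9 members, when 15.8% of all tested genes were called higher and 14.1% lower. The same 3 were called at WT 72 h (all genes 12.6% higher and 11.4% lower), and *Il6st* and *Pim1* at WT 144 h (15.6% and 11.7%). No member was called lower in these comparisons. In DKO, *Il6st* and *Pim1* were called higher at 24 h (11.6% and 13.3%), and *Lifr* and *Il6st* at 72 h (17.2% and 9.06%). The times of a genotype share their 0 h libraries, so these counts do not stand for separate evidence.

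On spike-in TPM, no member was called at WT 24 h (1.25% of all genes higher and 8.73% lower) or WT 72 h (0.697% and 7.6%), where limma gave an unadjusted p under 0.05 to 1 member each, *Socs3* and *Lif*, and to 26.7% and 25.7% of all genes. At WT 144 h, 6 of 9 were called lower, *Lif*, *Lifr*, *Jak1*, *Jak2*, *Stat3* and *Socs3*, beside 50.5% of all genes lower and 0.461% higher. The median log2 difference of the 9 members there was −0.95 and that of all tested genes −0.83. The median of all tested genes was −0.33 at WT 24 h and at WT 72 h, −0.49 at DKO 24 h and −0.12 at DKO 72 h on spike-in TPM, and between −0.01 and 0.14 at these times on deposited TPM. The spike-in differences below are to be read against these shifts. At DKO 24 h *Socs3* alone was called lower (18.7% of all genes lower, 0.505% higher), and at DKO 72 h no member was (2.95% and 0.713%), and *Lif* alone had an unadjusted p under 0.05 there, as had 19.7% of all genes. With the replicate as a block within each genotype, spike-in calls, all of them lower, came to 1 at WT 24 h (*Socs3*, beside 25.7% of all genes lower with the block), 2 at WT 72 h (*Lif* and *Jak1*, 25.4%), the same 6 at WT 144 h (66.3%), 4 at DKO 24 h (*Jak1*, *Stat3*, *Socs3* and *Gbx2*, 38.1%) and 1 at DKO 72 h (*Lif*, 13.2%). On deposited TPM the block called 4 members in either direction at WT 24 h, 5 at WT 72 h, 3 at WT 144 h, 3 at DKO 24 h and 4 at DKO 72 h, when 37.1%, 32%, 35.5%, 31.9% and 35.8% of all genes were called. The block raised the share of all genes called as well.

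**Figure D2:**
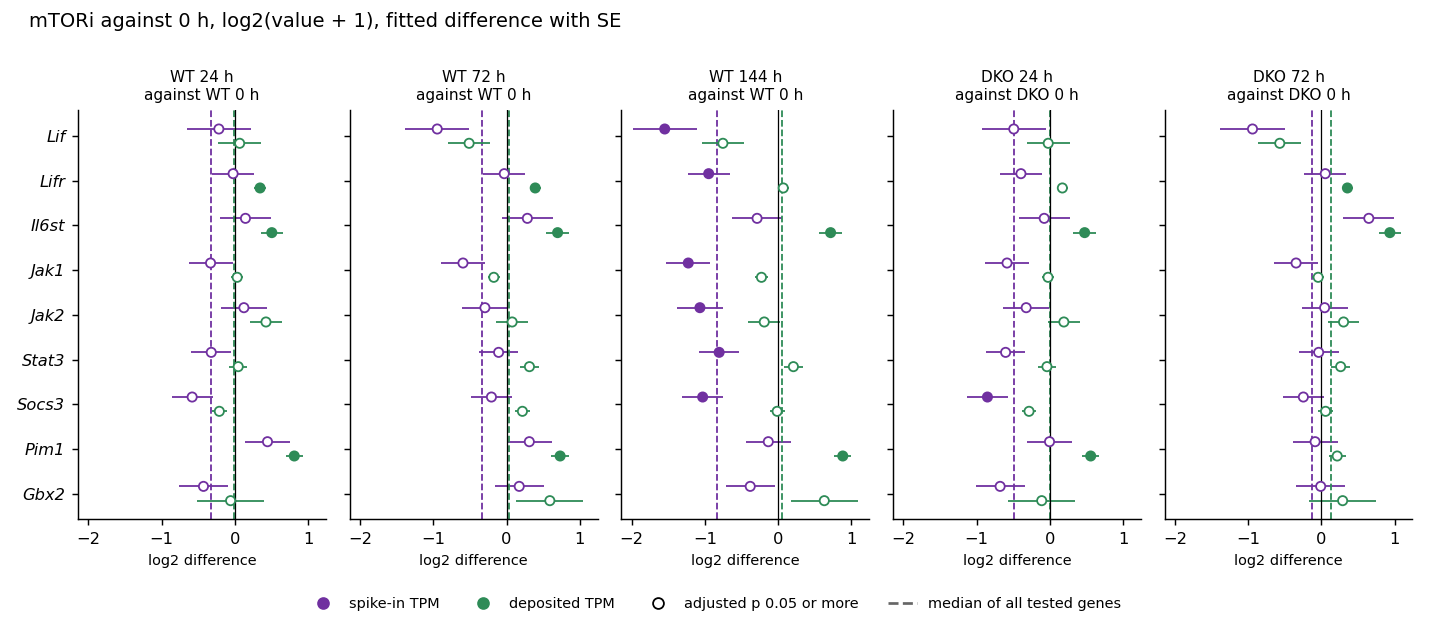
Fitted log2 differences of each mTORi time from 0 h of the same genotype, with SE bars, for the 9 members in rows and the 5 comparisons in panels. Purple marks spike-in TPM and green deposited TPM, filled points have an adjusted p under 0.05, and dashed lines give the median of all tested genes. At WT 144 h the purple median lies at −0.83, with *Il6st*, *Pim1* and *Gbx2* to its right by more than their SE.

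*Lif*, the ligand, was the weakest member, and at the last time of each genotype both libraries lay under those at 0 h on both scales, with a call on spike-in TPM at WT 144 h. Its deposited TPM in WT were 1.71 and 2.78 at 0 h, 2.34 and 2.35 at 24 h, 0.759 and 1.87 at 72 h and then 0.649 and 1.18 at 144 h. The libraries at 24 h lay within the range of those at 0 h, and those at 144 h lay under all of 0 and 24 h. On spike-in TPM it went from 3.61 and 5.87 at 0 h to 0.695 and 1.18 at 144 h, a log2 difference of −1.55 ± 0.44 (SE) with an adjusted p of 0.00789 (limma). On deposited TPM the difference was −0.75 ± 0.29 (SE) with an adjusted p of 0.0794, and 0.0106 with the replicate block. In DKO the deposited TPM were 3.13 and 2.19 at 0 h and then 1.88 and 1.08 at 72 h, without overlap and with an adjusted p of 0.172, or 0.0333 with the block. The spike-in call at WT 144 h was lost without WT 0 h replicate 2 (adjusted p 0.081) or WT 144 h replicate 1 (0.0618), and without the filter on low values (0.062). These are levels of the cells' own transcript and not of the LIF in the medium.

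*Lifr*, the subunit that gives the receptor its binding of LIF, rose in share at WT 24 and 72 h and was not called at WT 144 h. Its deposited TPM in WT were 66.03 and 69.6 at 0 h, 90.8 and 82.05 at 24 h, 89.3 and 89.3 at 72 h and then 68.1 and 74.5 at 144 h. The libraries at 24 and 72 h all lay above those at 0 h, and those at 144 h overlapped them. The log2 difference was 0.34 ± 0.08 (SE) at 24 h with an adjusted p of 0.00804, and 0.39 ± 0.08 (SE) at 72 h with an adjusted p of 0.00561. The 24 h call was lost without WT 0 h replicate 1 (adjusted p 0.0509) or WT 24 h replicate 1 (0.0675), and the 72 h call held in all 14 fits that left out 1 library. On spike-in TPM, *Lifr* was at 139 and 147 at 0 h, 130.2 and 152 at 24 h and then 147 and 133 at 72 h, which overlapped, and at 72.9 and 74.5 at 144 h. The fall at 144 h was −0.95 ± 0.28 (SE) with an adjusted p of 0.0109, at percentile 41.1 of all tested genes. This call was lost without WT 0 h replicate 2 (adjusted p 0.0762) or either WT 144 h library (0.0634 and 0.0655).

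In DKO, *Lifr* was the member with the highest share at every time, and its 6 libraries ranked by time without overlap. It stood at 88.00 and 84.5 deposited TPM at 0 h, 98.8 and 95.7 at 24 h and then 111 and 110.4 at 72 h. The difference of 72 h from 0 h was 0.35 ± 0.08 (SE) with an adjusted p of 0.00951, and that of 24 h was 0.17 ± 0.08 (SE) with an adjusted p of 0.138. The call at 72 h was lost without DKO 0 h replicate 2 (adjusted p 0.0591) or either DKO 72 h library (0.0576 and 0.0515). This call was also lost with each library centred on its median. On spike-in TPM the libraries spread from 221 and 129.9 at 24 h to 280.5 and 191 at 72 h and no time was called.

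*Il6st*, which encodes gp130, was called higher on deposited TPM in all 5 time comparisons, the only member called in each of them. The fitted differences of *Lifr* and *Pim1* were also above 0 in all 5. In WT its deposited TPM were 26.99 and 30.1 at 0 h, 36.6 and 45.5 at 24 h, 47.6 and 46.04 at 72 h and then 47.2 and 47.7 at 144 h, and in DKO 28.2 and 24.7 at 0 h, 44.1 and 31.1 at 24 h and then 50.6 and 51.9 at 72 h. Every treated library lay above both 0 h libraries of its genotype. At 24 h the replicate with more *Il6st* was in each genotype the one with the higher primitive endoderm sum, 116 against 66.1 in WT and 48.5 against 17.6 in DKO, and the part of these markers in the 24 h values was not tested. In WT the log2 difference was 0.50 ± 0.15 (SE) at 24 h with an adjusted p of 0.0305, 0.70 ± 0.15 (SE) at 72 h (0.00885) and 0.72 ± 0.15 (SE) at 144 h (0.00721). In DKO it was 0.48 ± 0.15 (SE) at 24 h (0.044) and 0.93 ± 0.15 (SE) at 72 h (0.00247), where the mean was 1.94 times that at 0 h. The calls at WT 144 h and DKO 72 h held whichever library was left out. That at WT 72 h was lost without WT 0 h replicate 1 (adjusted p 0.0575), that at WT 24 h without either WT 0 h library (0.138 and 0.0609) or WT 24 h replicate 2 (0.201), and that at DKO 24 h in 11 of 14 such fits. The DKO 24 h call was kept without either WT 24 h library or DKO 24 h replicate 2, and its adjusted p was highest without DKO 24 h replicate 1, at 0.29. It was also lost with 1 replicate block over both genotypes (0.0612) and with each library centred on its median.

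On spike-in TPM *Il6st* was not called at any time. It was at 56.97 and 63.5 at WT 0 h and then 50.5 and 47.7 at WT 144 h, without overlap, for a difference of −0.29 ± 0.35 (SE) and an adjusted p of 0.491. The fitted value was at percentile 82.6 of all tested genes in this comparison. At DKO 72 h it was at 128 and 89.7 against 79.3 and 58.6 at 0 h, a difference of 0.65 ± 0.35 (SE) with an adjusted p of 0.312.

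The ratio of *Lifr* to *Il6st* within a library does not depend on the library factor, and was computed after the values had been seen. It was 2.45 and 2.31 at WT 0 h, 2.48 and 1.80 at 24 h, 1.88 and 1.94 at 72 h and then 1.44 and 1.56 at 144 h. In DKO it was 3.12 and 3.43 at 0 h, 2.24 and 3.08 at 24 h and then 2.19 and 2.13 at 72 h. In both genotypes the ratio was lower at the last time than at 0 h in all libraries, and at 0 h and 72 h it was higher in DKO than in WT in all libraries. As a ratio chosen after its values were seen, it was not tested.

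**Figure D3:**
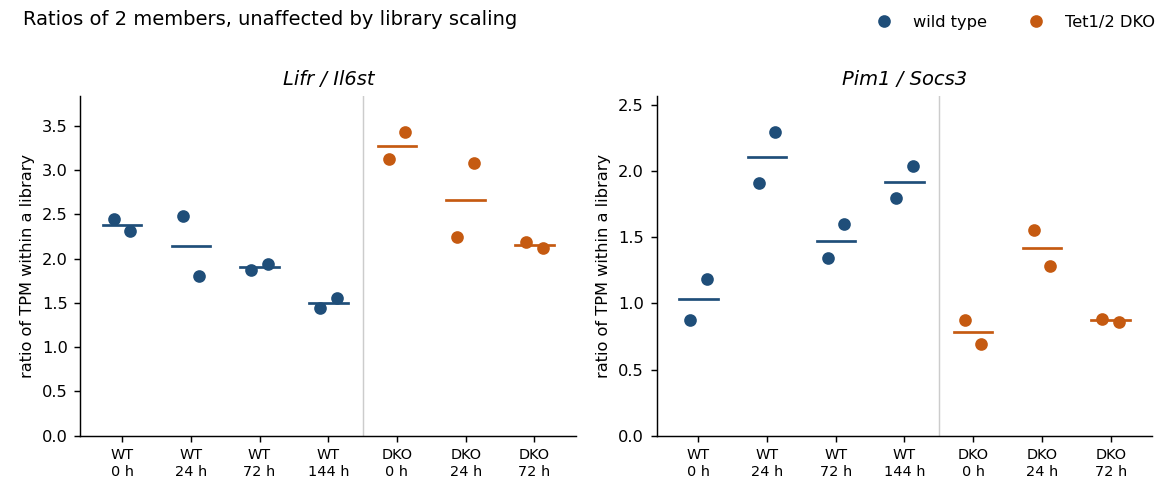
Ratios of deposited TPM within each library, *Lifr* to *Il6st* on the left and *Pim1* to *Socs3* on the right, by group, with points for libraries, bars for their mean, blue for WT and orange for DKO. The left ratio goes from a mean of 2.38 at 0 h to 1.91 at 72 h in WT, and the right one from 1.03 to 1.47 in WT and from 0.785 to 0.872 in DKO over the same time.

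The kinases *Jak1* and *Jak2* were not called on deposited TPM in any time comparison. *Jak1* in WT was at 22.5 and 23.8 deposited TPM at 0 h, 24.4 and 22.97 at 24 h, 21.1 and 19.7 at 72 h and then 19.4 and 19.8 at 144 h. Both late times lay under 0 h without overlap, with a difference of −0.23 ± 0.08 (SE) at 144 h with an adjusted p of 0.0672. On spike-in TPM, *Jak1* went from 47.5 and 50.2 at 0 h to 34.9 and 42.6 at 24 h, 34.8 and 29.4 at 72 h and then 20.7 and 19.8 at 144 h, and the libraries of no 2 of these groups overlapped. Its fall at 144 h of −1.23 ± 0.30 (SE), with an adjusted p of 0.00332, left a mean of 0.415 times that at 0 h, and it was the only member's spike-in call that held in all 14 fits with 1 library left out. At 72 h the difference was −0.59 ± 0.30 (SE), with an adjusted p of 0.218, or 0.0461 with the replicate block.

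*Jak2* was the lowest member after *Lif*. In WT it was at 4.06 and 3.89 deposited TPM at 0 h, 6.95 and 4.60 at 24 h, 3.72 and 4.82 at 72 h and then 3.38 and 3.34 at 144 h, and in DKO at 4.90 and 6.13, 5.22 and 7.82 and 6.44 and 7.59 at 0, 24 and 72 h. On spike-in TPM it fell from 8.56 and 8.21 at WT 0 h to 3.61 and 3.34 at 144 h, a difference of −1.07 ± 0.31 (SE) with an adjusted p of 0.00951. That call was lost when any 1 of these 4 libraries was left out, with adjusted p between 0.0575 and 0.0857, and no call was made for *Jak2* on deposited TPM. In DKO its spike-in TPM were 13.8 and 14.6 at 0 h and then 16.3 and 13.1 at 72 h, which overlapped.

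*Stat3* was not called on deposited TPM at any time. Its deposited TPM in WT were 50.7 and 44.7 at 0 h, 52.04 and 46.5 at 24 h, 63.1 and 55.9 at 72 h and then 56.9 and 53.5 at 144 h, and in DKO 43.04 and 51.7, 41.4 and 50.8 and 55.8 and 57.8 at 0, 24 and 72 h. The libraries at 72 h lay above 0 h in both genotypes, by 0.31 ± 0.13 (SE) in WT with an adjusted p of 0.0978 and by 0.26 ± 0.13 (SE) in DKO with 0.148. With the replicate block these became 0.0165 and 0.0311, past the threshold. On spike-in TPM it fell from 107 and 94.5 at WT 0 h to 60.9 and 53.5 at 144 h, a difference of −0.81 ± 0.27 (SE) with an adjusted p of 0.0198, at percentile 51.9 of all tested genes. The call was lost when any 1 of these 4 libraries was left out, with adjusted p between 0.0667 and 0.145. *Stat3* (chr11:100885098-100939540, minus strand, mm10) overlaps *Stat5a* on the other strand, which averaged 2.02 deposited TPM. Transcript level gives no measure of STAT3 phosphorylation.

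*Socs3*, the feedback inhibitor and a direct STAT3 target, had its lowest mean share at 24 h in both genotypes. In WT it was at 63.4 and 56.97 deposited TPM at 0 h, 54.7 and 48.9 at 24 h, 72.7 and 67.4 at 72 h and then 64.3 and 55.01 at 144 h. In DKO it was at 77.98 and 80.02 at 0 h, 61.3 and 68.3 at 24 h and then 81.3 and 83.1 at 72 h. In each genotype both 24 h libraries lay under both at 0 h, and those at 72 h lay above them. The 24 h difference was −0.21 ± 0.10 (SE) in WT with an adjusted p of 0.143, or 0.0381 with the replicate block, and −0.28 ± 0.10 (SE) in DKO with 0.0661, or 0.0134 with the block. At WT 72 h the block gave a call in the other direction, 0.22 ± 0.07 (SE) with an adjusted p of 0.0405, against 0.149 without it.

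On spike-in TPM *Socs3* went from 134 and 120.3 at WT 0 h to 78.4 and 90.6 at 24 h, 120.0 and 100.5 at 72 h and then 68.9 and 55.01 at 144 h. The fall at 144 h was −1.03 ± 0.28 (SE) with an adjusted p of 0.00604, lost without WT 144 h replicate 2 (adjusted p 0.0839). In DKO it went from 219 and 190.0 at 0 h to 137 and 92.6 at 24 h and then 206 and 144 at 72 h. The fall at DKO 24 h was −0.85 ± 0.28 (SE) with an adjusted p of 0.0374, and it was called in 5 of the 14 fits that left out 1 library, with the adjusted p as high as 0.262 without DKO 0 h replicate 1. It was kept without either WT 24 h or DKO 72 h library or DKO 24 h replicate 1. The primitive endoderm sums were highest in both WT 24 h libraries and DKO 24 h replicate 1, while DKO 24 h replicate 2 lay within the range of other groups. The trophectoderm sums were highest in WT 24 h replicate 1 and DKO 24 h replicate 2, mostly through *Krt8* and *Krt18*. The part of these markers in the *Socs3*, *Lifr* and *Pim1* values at 24 h was not tested.

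*Pim1*, a serine/threonine kinase gene that STAT3 activates, showed the largest gain in share of the 9 members in WT. Its deposited TPM in WT were 55.6 and 67.5 at 0 h, 105 and 112 at 24 h, 97.4 and 108 at 72 h and then 116 and 112 at 144 h. All 6 treated libraries lay above both at 0 h. The log2 difference was 0.81 ± 0.12 (SE) at 24 h with an adjusted p of 0.000814, 0.73 ± 0.12 (SE) at 72 h (0.00204) and 0.88 ± 0.12 (SE) at 144 h (0.000742), and each of these calls held in all 14 fits with 1 library left out. In DKO the deposited TPM were 68.4 and 55.4 at 0 h, 95.1 and 87.3 at 24 h and then 71.8 and 71.4 at 72 h. The rise at DKO 24 h was 0.56 ± 0.12 (SE) with an adjusted p of 0.00694, lost without DKO 0 h replicate 2 (adjusted p 0.0589). At DKO 72 h the difference was 0.22 ± 0.12 (SE) with an adjusted p of 0.2, and the libraries there lay under both of DKO 24 h and of every treated WT group.

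On spike-in TPM *Pim1* was not called at any time. It was at 117 and 142 at WT 0 h, 149.9 and 208 at 24 h, 161 and 160.3 at 72 h and then 124 and 112 at 144 h. The difference at 144 h was −0.13 ± 0.31 (SE) with an adjusted p of 0.726 and overlapping libraries, at percentile 88.1 of all tested genes. The DKO replicates were apart at each time, with 193 and 132 at 0 h, 213 and 118 at 24 h and then 182 and 123 at 72 h. *Pim1* (chr17:29490812-29496111, plus strand) overlaps *Gm26885* on the other strand, at 3.03 deposited TPM on average.

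The ratio of *Pim1* to *Socs3*, both targets of STAT3, did not overlap between the genotypes at 24 and 72 h. It was 0.878 and 1.18 at WT 0 h, 1.91 and 2.29 at 24 h, 1.34 and 1.60 at 72 h and then 1.80 and 2.04 at 144 h. In DKO it was 0.878 and 0.692 at 0 h, 1.55 and 1.28 at 24 h and then 0.884 and 0.859 at 72 h. Of the DKO libraries at 72 h, 1 lay within the range at DKO 0 h and 1 just above it, while both WT libraries at 72 h lay above those at WT 0 h. This ratio was also chosen after its values were seen and was not tested.

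*Gbx2*, a homeobox gene that LIF and STAT3 keep on in ES cells, had replicates far apart and no call in any comparison without the block. Its deposited TPM were 48.4 and 35.8 at WT 0 h, 58.2 and 27.3 at 24 h, 84.4 and 47.4 at 72 h and then 64.5 and 65.5 at 144 h. In DKO they were 39.5 and 60.2 at 0 h, 28.1 and 72.04 at 24 h and then 51.1 and 70.01 at 72 h. Replicate 1 was the higher one at WT 0, 24 and 72 h and the lower one at every DKO time. The difference at WT 144 h was 0.63 ± 0.46 (SE) on deposited TPM and −0.38 ± 0.33 (SE) on spike-in TPM, with adjusted p of 0.335 and 0.34. With the block, the spike-in fall at DKO 24 h, −0.68 ± 0.23 (SE), had an adjusted p of 0.0268, against 0.158 without it. *Gbx2* (chr1:89927956-89931179, minus strand) overlaps *D130058E05Rik* on the other strand, at 3.89 deposited TPM, and whether strand was used in counting is not stated.

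**Figure D4:**
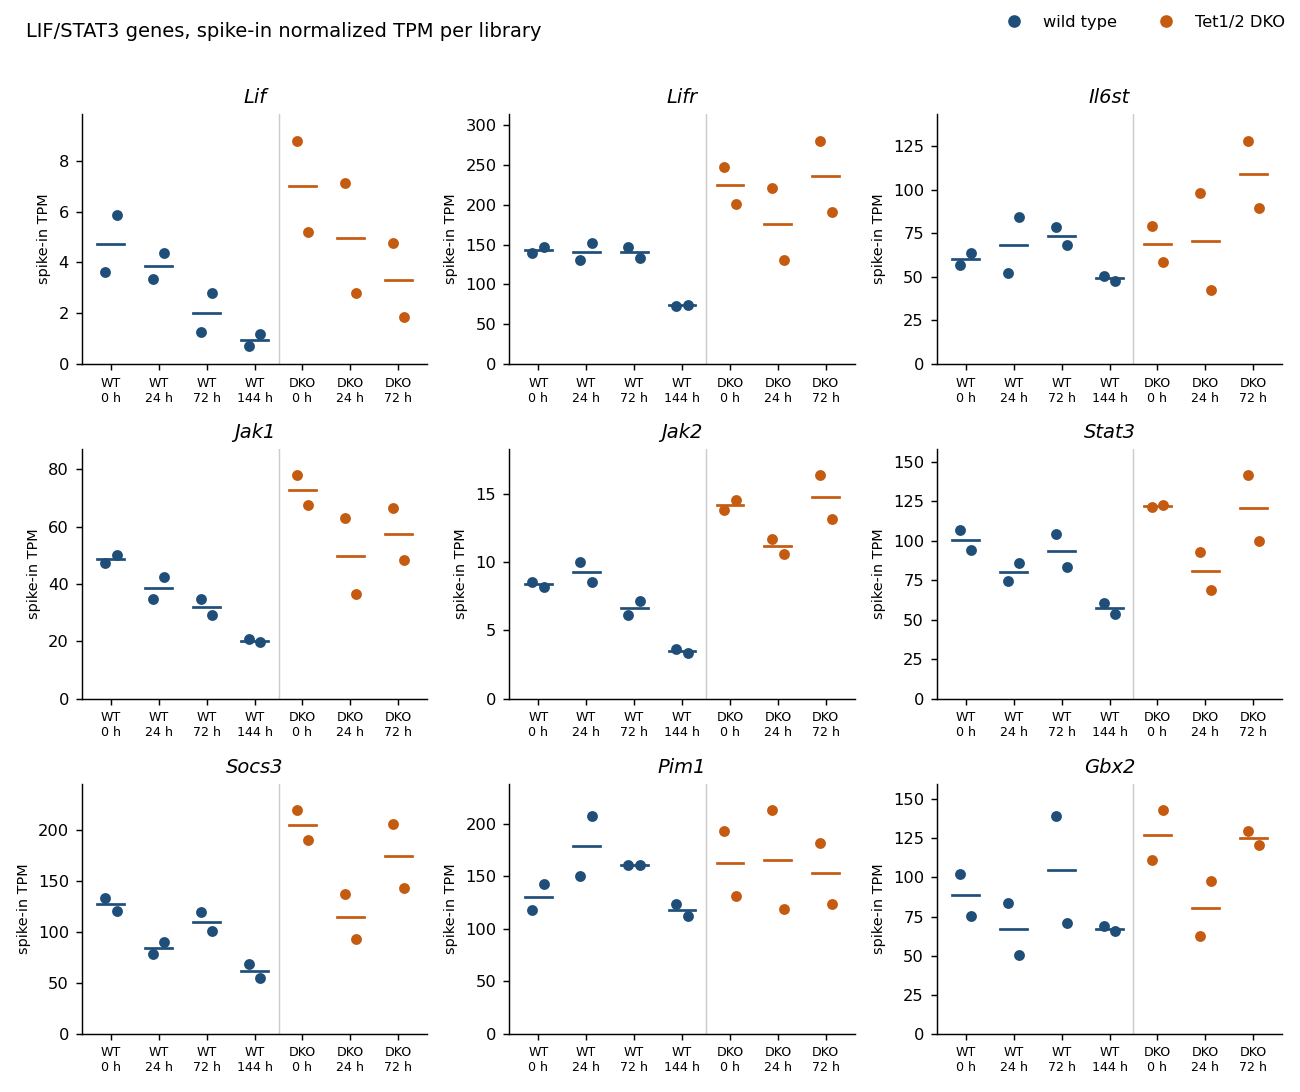
Spike-in TPM of the 9 members, laid out as the panels of deposited TPM, with points for the 2 libraries of each group and bars for their mean. *Lifr* at DKO 24 h shows the distance between the DKO replicates, 221 and 129.9, where the deposited TPM were 98.8 and 95.7.

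DKO against WT at the same time asks whether the loss of TET enzymes shifted the pathway. With a line from 1 cell, the genotype and the clone cannot be told apart. On spike-in TPM no member was called at 0 h, 24 h or 72 h, when 0.0439%, 0.0439% and 0.329% of all genes were called in either direction, and 3, 0 and 4 members had an unadjusted p under 0.05 (limma), beside 8.35%, 4.14% and 23.0% of all genes. On deposited TPM none was called at 0 h (0.598% of all genes) or 24 h (1.37%), with 3 and 2 members at an unadjusted p under 0.05, beside 13.9% and 14.8% of all genes. At 72 h, *Jak1* was called higher and *Pim1* lower in DKO, beside 3.17% of all genes called higher and 0.845% lower.

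*Jak1* was higher in DKO at every time on deposited TPM. It was at 27.7 and 28.4 at DKO 0 h, 28.2 and 26.9 at 24 h and then 26.3 and 28.01 at 72 h, and no WT library reached these values. The difference from WT was 0.27 ± 0.08 (SE) at 0 h (adjusted p 0.183), 0.21 ± 0.08 (SE) at 24 h (0.265) and 0.40 ± 0.08 (SE) at 72 h (0.033). On spike-in TPM it was 0.81 ± 0.30 (SE) at 72 h with an adjusted p of 0.175. The median of all tested genes at 72 h was 0.49 on spike-in TPM and 0.11 on deposited TPM. *Pim1* at 72 h was −0.51 ± 0.12 (SE) on deposited TPM with an adjusted p of 0.043, and −0.10 ± 0.31 (SE) on spike-in TPM with 0.817. With 1 block over all libraries, although the numbers do not pair across genotypes, neither was called (adjusted p 0.0576 and 0.0707). Both calls were close to the threshold: *Jak1* was called in 8 and *Pim1* in 6 of the 14 fits with 1 library left out. With each library centred on its median, *Pim1* was still called and *Jak1* was not. Without 1 of the 4 libraries compared, the adjusted p was 0.109 to 0.187 for *Jak1* and 0.122 to 0.201 for *Pim1*. The calls were also lost without either WT 144 h library, and that of *Pim1* without either WT 24 h library, with adjusted p between 0.0596 and 0.0722.

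*Lifr* and *Socs3* stood higher in DKO libraries than in WT libraries without a call. *Lifr* in DKO was above WT in all libraries at each time on deposited TPM, by 0.34 ± 0.08 (SE) at 0 h (adjusted p 0.0891), 0.17 ± 0.08 (SE) at 24 h (0.347) and 0.31 ± 0.08 (SE) at 72 h (0.056). *Socs3* was above WT likewise at each time, by 0.39 ± 0.10 (SE) at 0 h (0.126), 0.32 ± 0.10 (SE) at 24 h (0.166) and 0.23 ± 0.10 (SE) at 72 h (0.228). *Jak2* differed by 0.61 ± 0.22 (SE) at 72 h (0.138), with DKO above WT in all libraries. *Il6st*, *Stat3*, *Lif* and *Gbx2* had adjusted p of 0.689 or more on deposited TPM at each time.

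**Figure D5:**
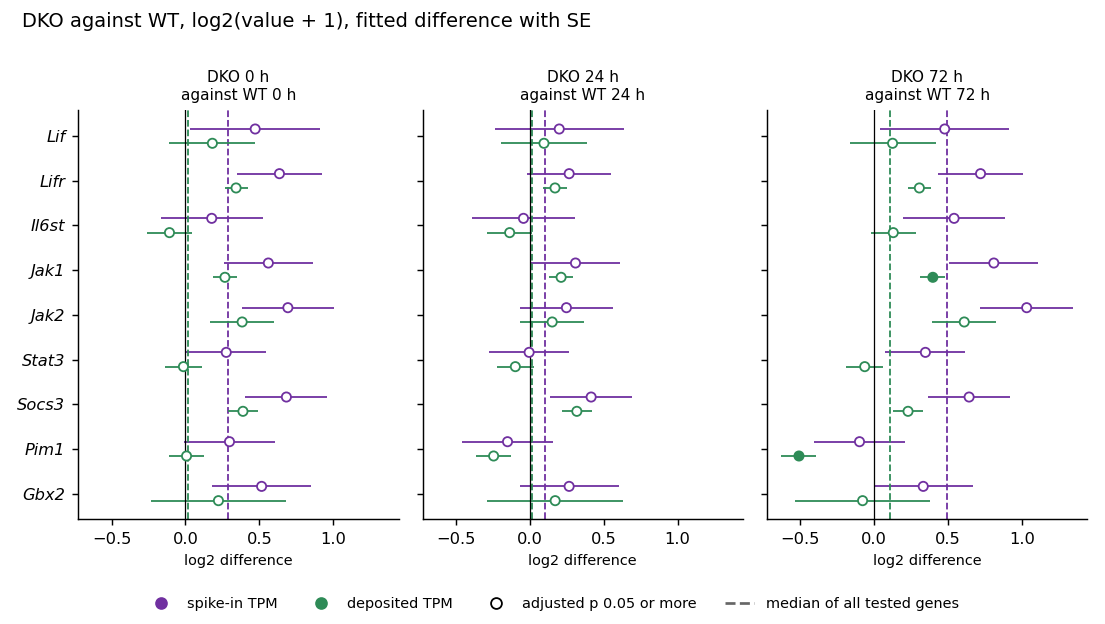
Fitted log2 differences of DKO from WT at 0, 24 and 72 h, with SE bars, for the 9 members in rows. Purple marks spike-in TPM, green deposited TPM, filled points an adjusted p under 0.05 and dashed lines the median of all tested genes. The filled points are *Jak1* at 0.40 and *Pim1* at −0.51, both at 72 h on deposited TPM.

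Whether the response to mTORi differed between the genotypes was tested as the difference of both time differences. No member was called at 24 h or 72 h on either scale, where the share of all genes called was 0.00548% and 0% on spike-in TPM and 0% and 0% on deposited TPM. Of the members, *Pim1* at 72 h on deposited TPM was the 1 value with an unadjusted p under 0.05 (limma), which 3.71% of all genes had there. *Pim1* had the largest value at 72 h on deposited TPM, −0.52 ± 0.17 (SE), with an unadjusted p of 0.0109 and an adjusted p of 0.999, at percentile 2.03 of all tested genes. The replicate block left its adjusted p at 0.804. At 24 h the fitted value was below 0 for all 9 members on deposited TPM, from −0.03 for *Il6st* to −0.25 ± 0.17 (SE) for *Pim1*, and 47.7% of all genes were above 0. So the *Pim1* difference between the genotypes at 72 h was called as a level, and not as a response.

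Around the members, 48 other genes of the pathway were listed by role, and 43 of them were tested. *Il6*, *Il11*, *Osm*, *Osmr* and *Clcf1*, ligands of the IL-6 family and the oncostatin receptor, were under the filter. On spike-in TPM at WT 144 h, 1 of the 43 was called higher and 25 lower, and on deposited TPM 7 higher and 6 lower. These counts lie near the shares of all tested genes in that comparison, 50.5% lower on spike-in TPM, and 15.6% higher and 11.7% lower on deposited TPM. The counts of single lists below are to be read against the same shares. On deposited TPM there were 8 higher and 4 lower at WT 24 h, 7 and 7 at WT 72 h, 5 and 4 at DKO 24 h, and 6 and 7 at DKO 72 h. The shares of all genes were 15.8% and 14.1%, 12.6% and 11.4%, 11.6% and 13.3%, and 17.2% and 9.06% in the same order. On spike-in TPM 0 were called at WT 24 h, 1 higher and 2 lower at WT 72 h, 6 lower at DKO 24 h, and 0 at DKO 72 h, where the shares of all genes were those given with the members. In the comparisons with 0 calls, 9 genes at WT 24 h and 11 at DKO 72 h had an unadjusted p under 0.05 (limma), near the 26.7% and 19.7% of all genes.

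Of the other ligands and receptors of the IL-6 family, 3 of 6 tested genes fell on spike-in TPM at WT 144 h, as did 50.5% of all genes, and 1 on deposited TPM. *Il6ra*, the subunit that binds IL-6, was at 1.64 and 1.14 deposited TPM at WT 0 h and then 0.591 and 0.281 at 144 h, a difference of −0.73 ± 0.20 (SE) with an adjusted p of 0.0209, and of −1.43 ± 0.34 (SE) on spike-in TPM (0.00309). *Il11ra1*, the receptor of IL-11, differed by −1.19 ± 0.39 (SE) on spike-in TPM (0.0171). The list's median was −0.95 on spike-in TPM and −0.18 on deposited TPM, beside −0.83 and 0.05 for all tested genes.

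Of the other JAK kinases and STAT factors, 6 of 8 fell on spike-in TPM and 1 on deposited TPM at WT 144 h, and the list's medians were −1.09 and −0.13. *Stat6*, the STAT of interleukin-4 signalling, was at 12.7 and 13.4 deposited TPM at WT 0 h and then 8.41 and 8.79 at 144 h. It fell by 0.55 on the log2 scale of deposited TPM (adjusted p 0.00515) and by 1.53 on that of spike-in TPM (0.00111).

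Of 14 other inhibitors, 8 fell on spike-in TPM at WT 144 h (50.5% of all genes), and 2 rose and 0 fell on deposited TPM (15.6% and 11.7%), with list medians of −0.92 and 0.06. *Socs2*, a suppressor of cytokine signalling like *Socs3*, was at 31.6 and 38.5 deposited TPM at WT 0 h, 47.5 and 50.7 at 24 h, 54.2 and 44.7 at 72 h and then 63.6 and 70.7 at 144 h. Its rise at 144 h was 0.92 ± 0.13 (SE) with an adjusted p of 0.000889, whereas *Socs3* had no call on that scale. *Pias1*, a SUMO ligase that binds STATs, rose by 0.43 (0.0183). On spike-in TPM *Ptpn2*, a phosphatase of JAKs and STATs, fell by 1.34 (0.00161) and *Socs4* fell by 1.20 (0.00941).

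Of 6 adaptors that link the receptor to the MAPK and PI3K routes, 5 fell on spike-in TPM at WT 144 h, and 1 rose and 3 fell on deposited TPM, with list medians of −1.28 and −0.26. *Pik3r1*, a regulatory subunit of PI3K, was at 5.34 and 5.46 deposited TPM at WT 0 h and then 8.66 and 8.90 at 144 h, a rise of 0.61 ± 0.11 (SE) with an adjusted p of 0.00374. *Ptpn11*, the phosphatase SHP2 that gp130 recruits, was at 33.7 and 35.5 at WT 0 h and then 27.7 and 24.5 at 144 h and fell by 0.40 (0.00628), and the scaffold *Gab1* fell by 0.39 (0.0281). On spike-in TPM they fell by 1.41 each (0.0013 and 0.000536). *Ptpn11*, *Gab1* and the adaptor *Grb2* were called lower on deposited TPM in all 5 time comparisons.

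Of 9 other targets of LIF, 1 rose and 3 fell on spike-in TPM at WT 144 h, and 4 rose and 1 fell on deposited TPM, with list medians of −0.38 and 0.61. *Klf4*, a transcription factor of naive pluripotency, was at 66.4 and 71.5 deposited TPM at WT 0 h, 181 and 199 at 24 h, 147 and 159 at 72 h and then 185 and 178 at 144 h, a rise of 1.39 ± 0.19 (SE) at 144 h with an adjusted p of 0.000944. *Zfp36*, whose protein destabilizes mRNAs, went from 4.73 and 5.59 to 19.7 and 19.1, a rise of 1.73 ± 0.25 (SE) with an adjusted p of 0.00108, and it was the one gene of the lists that also rose on spike-in TPM, by 0.83 (0.034). *Pramel7*, which LIF and STAT3 activate in ES cells, went the other way. It was at 22.6 and 30.02 at WT 0 h, 14.2 and 32.3 at 24 h, 4.77 and 7.78 at 72 h and then 2.60 and 1.94 at 144 h, a difference of −3.06 ± 0.41 (SE) with an adjusted p of 0.000786 on deposited TPM and of −4.07 ± 0.48 (SE) (1.68e-05) on spike-in TPM. *Tfcp2l1*, a transcription factor downstream of STAT3, fell by 1.21 on spike-in TPM (0.00432). On deposited TPM it was not called at WT 144 h and was called higher at WT 24 h and DKO 24 h. *Pim3*, a relative of *Pim1* named after its values were seen, was at 84.5 and 89.1 at WT 0 h and then 188 and 171 at 144 h, and at 96.01 and 101 at DKO 0 h and then 179 and 190.0 at DKO 72 h, where *Pim1* was at 71.8 and 71.4. Its rise at DKO 72 h was 0.90 ± 0.09 (SE) with an adjusted p of 0.000377, a call that *Pim1* did not have.

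Between the genotypes, 0 of the 43 were called on spike-in TPM, where limma gave an unadjusted p under 0.05 to 4, 0 and 7 of them at 0, 24 and 72 h (8.35%, 4.14% and 23.0% of all genes). On deposited TPM 2 were called at 72 h, a share near the 4.01% of all genes. *Ptpn11* was at 31.2 and 32.1 in DKO and 23.7 and 22.9 in WT, higher in DKO by 0.43 ± 0.08 (SE) with an adjusted p of 0.0258. *Pias3*, the inhibitor that binds STAT3, was at 9.23 and 7.93 in DKO and 11.4 and 13.8 in WT, lower in DKO by −0.50 ± 0.12 (SE) with an adjusted p of 0.0444. No other gene of the lists was called in a comparison of genotypes or of responses.

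The members did not move as 1 block across the 14 libraries. On log2(deposited TPM + 1), Pearson's r between members was highest for *Stat3* and *Gbx2* at 0.83, *Lifr* and *Jak2* at 0.77, *Jak1* and *Jak2* at 0.75, and *Il6st* and *Pim1* at 0.67. It was lowest for *Lif* with *Stat3* at −0.87 and with *Gbx2* at −0.74, and *Pim1* and *Socs3* had −0.55. These values are descriptions over 14 libraries that share their group, replicate and library composition. Of the 10928 or 10929 other tested genes with a mean of at least 5 deposited TPM, the most like *Pim1* were *Map3k9*, *Crb3* and *Ubash3a* (r of 0.97, 0.96 and 0.96), and the most like *Il6st* were *Zdhhc17*, *Zfp101* and *Brf1* (0.96, 0.96 and 0.95). *Jak1* was closest to *Bin1*, *Ndufa9* and *Gpn3* (0.96, 0.95 and 0.95), *Lifr* to *Zyg11b* and *Gtsf1* (0.94 and 0.93), and *Jak2* to *Eva1b*, *Map3k5* and *Rasa3* (0.95, 0.93 and 0.93). *Stat3* was closest to *Slc9b1*, *Irak3* and *Ndufa7* (0.93, 0.91 and 0.91), *Socs3* to *Tuba3a*, *Cldn12* and *Usp22* (0.96, 0.91 and 0.90), *Gbx2* to *Pla1a*, *Rhoc* and *Cdk6* (0.96, 0.95 and 0.94), and *Lif* to *Dhx35*, *Ccng1* and *Rhod* (0.93 each).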

How the data were processed

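RNA-seq was done on 14 libraries of E14 mouse ES cells in 7 groups of 2 replicates (WT at 0, 24, 72 and 144 h of mTORi, DKO at 0, 24 and 72 h). RNA came from equal numbers of sorted cells, and ERCC RNAs were used. Libraries were made from a fixed mass of total RNA, and ribosomal RNA was depleted. The submitters' processing notes name cutadapt 2.4, STAR 2.7.3a, StringTie 2.0 and build mm10. The study's methods list no strand option for StringTie, and whether strand was used in counting is not stated in words. The authors deposited 1 table of TPM per library, which sum to a fixed total and hold no ERCC entries, so read depth is unknown and no counting interval is given. TPM were summed per gene ID. Spike-in TPM are these values times 1 factor per library, taken as the median ratio of the authors' spike-in normalized table, shown only in part, to the deposited TPM over 481 to 539 of its genes at 1 TPM or more, with the members left out. Only this factor was taken from that table.

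Tests used limma 3.58.1 in R 4.3.3 (lmFit, then eBayes with a trend) on log2(value + 1) over all 14 libraries and 18232 genes that averaged 1 spike-in TPM or more, with 10 comparisons and the Benjamini-Hochberg adjusted p under 0.05 over all genes of a comparison. The code was tested on simulated data. Figures were drawn with matplotlib 3.10.9. Spike-in TPM were the main scale and deposited TPM the alternative that is printed beside it. The replicate block was a further alternative, as were median centring, another pseudocount, other filters, no trend, only the libraries compared, and each library left out. Time points of a replicate were processed in parallel according to the study's methods, so the numbers pair libraries within a genotype. Deviations from the group means correlated at 0.228 to 0.390 within DKO and at 0.0540 to 0.438 within WT, and at −0.531 to −0.379 between the genotypes at the same time. P-values measure the spread between these samples only.

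Named genes were all 9 members and, in each of the 5 pathway lists, the genes called at WT 144 h with the largest difference, up to 2 in each direction on each scale, with any gene called between the genotypes. A few genes that this rule or the likeness ranking names are not reported here. The members and lists were chosen with earlier results of these data known. Promoters came from RefSeq, and all 9 members were matched by symbol.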

Additional observations from a re-analysis of the deposited data

How the results depend on the processing

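With 2 libraries a group and no read depth, small differences of *Lif* and *Jak2*, both under 10 deposited TPM, could not be resolved. Beside the spike-in counts (0, 0, 6, 1 and 0 members at WT 24, 72, 144 h and DKO 24, 72 h, and 0 at 72 h between genotypes), deposited TPM gave 3, 3, 2, 2, 2 and 2. Median centring gave 3 at WT 24 h, 4 at WT 72 h, 1 at DKO 72 h (*Il6st*) and 1 at 72 h between genotypes (*Pim1*). At WT 144 h it gave 2 higher (*Il6st*, *Pim1*) and 2 lower (*Lif*, *Jak1*) against 0 and 6, and at DKO 24 h 1 higher (*Pim1*) against 1 lower. The replicate block within each genotype gave 1 at WT 24 h, 2 at WT 72 h, 4 at DKO 24 h and 1 at DKO 72 h, and with deposited TPM 4, 5, 3, 3 and 4 in the 5 time comparisons. Only the libraries compared gave 1 at WT 24 h, 2 at WT 72 h and 0 at DKO 24 h. No filter and no trend gave 0 at DKO 24 h. For counts on deposited TPM, the block within each genotype gave 5 at WT 72 h and 4 at DKO 72 h, the block over all libraries 1 at DKO 24 h and 0 at 72 h between genotypes, no filter 1 and 1, and no trend 1 and 0. The cause of these moves was not tested.

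With 1 library left out, the members called on spike-in TPM were 2 to 6 at WT 144 h, 0 to 4 at DKO 24 h, 0 to 2 at 72 h between genotypes and 0 to 0 elsewhere. On deposited TPM they were 1 to 3 at WT 24 h, 2 to 3 at WT 72 h, 2 to 2 at WT 144 h, 0 to 2 at DKO 24 h, 1 to 2 at DKO 72 h, 0 to 2 at 72 h between genotypes and 0 to 0 elsewhere. The spike-in calls gained at 72 h between genotypes were *Jak1* and *Jak2*, without either DKO 24 h library.

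Among the differences called on either scale without the block, the sign turned on deposited TPM and on median centring for *Lifr* at WT 24 h (0.34 and 0.27) and WT 72 h (0.39 and 0.28), *Il6st* at WT 144 h (0.72 and 0.60) and DKO 24 h (0.48 and 0.40), *Stat3* at WT 144 h (0.21 and 0.095) and *Pim1* at WT 144 h (0.88 and 0.77) and DKO 24 h (0.56 and 0.48), and on deposited TPM for *Lifr* at WT 144 h (0.070). With 1 library left out, the spike-in log2 difference spanned 0 for *Il6st* at DKO 24 h (−0.68 to 0.52) and WT 24 h (−0.19 to 0.48), *Lifr* at WT 24 h (−0.14 to 0.087), WT 72 h (−0.11 to 0.043) and DKO 72 h (−0.23 to 0.33), and *Pim1* at DKO 24 h (−0.42 to 0.42), WT 144 h (−0.27 to 0.0034) and 72 h between genotypes (−0.38 to 0.18). Over all alternatives, 973 values kept direction and side of the threshold, 129 lost and 46 gained a call or moved, and 36 turned sign.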

Other observations

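The library factors behind the spike-in TPM were ratios of whole numbers to within rounding. Multiplied by the matching whole number, each of the 14 factors gave 76, with whole numbers of 36 and 36 at WT 0 h, 53 and 41 at WT 24 h, 46 and 51 at WT 72 h, 71 and 76 at WT 144 h, 27 and 32 at DKO 0 h, 34 and 56 at DKO 24 h, and 30 and 44 at DKO 72 h. The higher factor was 1.65 times the lower one at DKO 24 h, 1.47 times at DKO 72 h and 1.29 times at WT 24 h, against 1.07 times at WT 144 h. In these groups the spike-in values of a member carry this ratio on top of the gap between its deposited TPM. For *Lifr* at DKO 24 h the spike-in TPM of 221 and 129.9 rest on deposited TPM of 98.8 and 95.7. For *Jak2* at DKO 24 h, spike-in TPM of 11.7 and 10.6 rest on deposited TPM of 5.22 and 7.82.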
